A study of Rattus norvegicus with 6 samples.

Results

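The aryl hydrocarbon receptor pathway was followed in RUCA-I cells through 6 genes: Ahr, Arnt, the receptor's repressor Ahrr, and the target genes Cyp1a1, Cyp1b1 and Tiparp. They were chosen by symbol, with their values in this comparison already known, so what follows describes them and does not test them. Of these 6, 5 had a tested row in the authors' gene table of 26459 tested rows, and Ahrr had no row of any status under its symbol. RUCA-I is an epithelial tumour line from the endometrium of a Lewis rat. Total RNA from untreated cultures was sequenced from miR-203 KO cells (genotype miR-203 -/-, 3 knockout lines generated independently) and from WT cells (wild type, 3 batches). The KO samples are lines and the WT samples are batches, so line-to-line differences and the loss of the microRNA cannot be told apart here. The files give 1 FPKM value (fragments per kilobase of transcript, corrected for sequencing depth) for each row and group, pooled over the samples. No value has an SD or an n of its own, and the read depth is unknown.

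The aryl hydrocarbon receptor is a ligand-activated transcription factor of the bHLH-PAS family, held in the cytosol by chaperones until it binds a planar aromatic pollutant, a plant compound or a product of tryptophan breakdown. It then enters the nucleus, pairs with the product of Arnt and binds the xenobiotic response element, which switches on genes of the CYP1 cytochromes P450. Ahrr and Tiparp are themselves targets that dampen the receptor in a feedback loop. In the uterus the pathway is known for its crosstalk with the estrogen receptor.

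The microRNA whose locus was disrupted is shown first, with the seed (bases 2 to 8) in capitals. Both mature forms are as RefSeq lists them on GRCr8, on the plus strand of chromosome 6, at chr6:137020756-137020777 for the 3p arm and chr6:137020718-137020738 for the 5p arm. Their seeds differ.
rno-miR-203a-3p: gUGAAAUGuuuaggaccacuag
rno-miR-203a-5p: aGUGGUUCuuaacaguucaac

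Promoter windows of target genes show how close the receptor's binding motif lies to their starts. RefSeq (GRCr8) gave a window of 300 bases, 250 before and 50 after the start, for 5 of the 6 members; Cyp1a1 was not matched. Windows are printed 5′ to 3′ in the direction of the gene, with each match to the motif core GCGTG, or CACGC for its reverse strand, in capitals. Cyp1b1 (chr6:21094315-21094614, plus strand) and Ahrr (chr1:30821969-30822268, plus strand) are set beside Tiparp (chr2:152063519-152063818, plus strand).
Cyp1b1: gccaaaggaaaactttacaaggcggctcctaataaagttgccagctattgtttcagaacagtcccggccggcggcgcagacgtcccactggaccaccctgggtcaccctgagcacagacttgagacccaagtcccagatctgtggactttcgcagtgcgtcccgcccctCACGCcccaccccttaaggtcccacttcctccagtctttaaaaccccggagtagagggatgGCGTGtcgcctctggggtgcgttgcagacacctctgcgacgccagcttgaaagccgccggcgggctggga
Ahrr: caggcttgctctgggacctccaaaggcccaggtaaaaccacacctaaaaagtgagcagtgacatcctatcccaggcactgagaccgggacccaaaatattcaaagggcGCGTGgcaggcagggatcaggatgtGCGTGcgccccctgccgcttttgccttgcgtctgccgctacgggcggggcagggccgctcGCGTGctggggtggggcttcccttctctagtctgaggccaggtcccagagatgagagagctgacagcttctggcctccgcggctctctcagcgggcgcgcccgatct
Tiparp: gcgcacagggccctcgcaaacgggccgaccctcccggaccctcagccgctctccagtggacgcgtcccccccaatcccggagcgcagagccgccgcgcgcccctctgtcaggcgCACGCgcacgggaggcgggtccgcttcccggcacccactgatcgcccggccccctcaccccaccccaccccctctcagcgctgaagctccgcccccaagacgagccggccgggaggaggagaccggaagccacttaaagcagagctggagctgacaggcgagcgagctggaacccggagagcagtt

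The core GCGTG, searched on both strands, occurred in 4 of these 5 windows, and in 29.7% of the 33469 promoter windows of the same length. Ahrr held 3 matches, Cyp1b1 held 2, and Tiparp and Arnt held 1 each, while the window of Ahr held none. The longer form TNGCGTG, which contains the core, was found in 2 member windows and in 4.89% of all windows. In Cyp1b1 it lay on the forward strand at positions -22 to -16, with -1 the last base before the start, and in Ahrr at -59 to -53. Such a match is a run of letters and does not show that the receptor binds there.

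Cyp1a1 was lower in miR-203 KO cells, and it was the one member that the authors' test called at q under 0.05. Ahr, Arnt, Tiparp and Cyp1b1 were not called. Of all tested rows, 1.05% were called, 0.556% as lower and 0.491% as higher in KO cells, and nothing is read from that share here because the members were picked with these values in view. The median of log2((KO + 1)/(WT + 1)), the log2 ratio with a pseudocount of 1 FPKM, was 0.13 over the 5 members and 0.02 over all tested rows. The member median is the value of Tiparp, whose sign depends on the scaling, so no shift of the members is read from it.

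Ahr encodes the ligand-binding receptor (rn6 chromosome 6, 54963987 to 55001811). Its level was 23.4 FPKM in KO cells and 23.4 FPKM in WT cells. The authors' deposited log2 fold change of KO over WT was -0.0012, with q = 0.998. The receptor transcript differed by -0.0187 FPKM (KO minus WT), and it stood above 81.5% of tested rows in KO cells and 81.4% in WT cells.

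Arnt encodes the nuclear partner of the receptor, which also pairs with the hypoxia factors (rn6 chromosome 2, 196594241 to 196645578). It stood at 15.2 FPKM in KO cells and 13.5 FPKM in WT cells. The authors' deposited log2 fold change was 0.19 with q = 0.997, while the ratio of the 2 deposited FPKM values gives 0.17. Arnt was the one member for which these 2 figures were over 0.01 apart, as they were in 425 of the 26459 tested rows. Ahr exceeded Arnt 1.54-fold in KO cells and 1.73-fold in WT cells on the FPKM scale, which corrects for transcript length.

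Tiparp encodes a mono-ADP-ribosyltransferase that is induced by the receptor and acts back on it (rn6 chromosome 2, 157316149 to 157343098). It was the most abundant member, with 33.5 FPKM in KO cells and 30.4 FPKM in WT cells, a log2 fold change of 0.14 with q = 0.997 in the deposited comparison. Scaled to the same total FPKM in both groups, its log2 ratio was -0.02, so no direction is given. The other two Tiparp rows of the table carry the same locus. They stood at 0.438 and 0.412 FPKM in KO cells, against 0.311 and 0.183 FPKM in WT cells. Neither was called (q = 0.997 each), and at these low levels they add little to the main row.

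Cyp1b1 encodes a P450 that hydroxylates estradiol and polycyclic aromatic compounds (rn6 chromosome 6, 2314907 to 2317552). Its level was 4.82 FPKM in KO cells and 3.78 FPKM in WT cells. The authors' deposited log2 fold change was 0.35, with an unadjusted Cuffdiff p of 0.0266 and q = 0.682. The higher KO value therefore did not pass the authors' adjusted test, and it points the other way from that of Cyp1a1.

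Cyp1a1 encodes the classic receptor-induced P450, which oxidises aromatic hydrocarbons (rn6 chromosome 8, 62472120 to 62478118). Its level was 0.0447 FPKM in KO cells and 3.60 FPKM in WT cells. The KO value is near 0 and the WT value is moderate, above that of 52.7% of tested rows. The authors' deposited log2 fold change was -6.33, with p = 0.00025 and q = 0.0269. The size of that fold rests on a value near 0: with a pseudocount of 1 FPKM the log2 ratio was -2.14, and the plain difference, KO minus WT, was -3.55 FPKM.

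**Figure D1:**
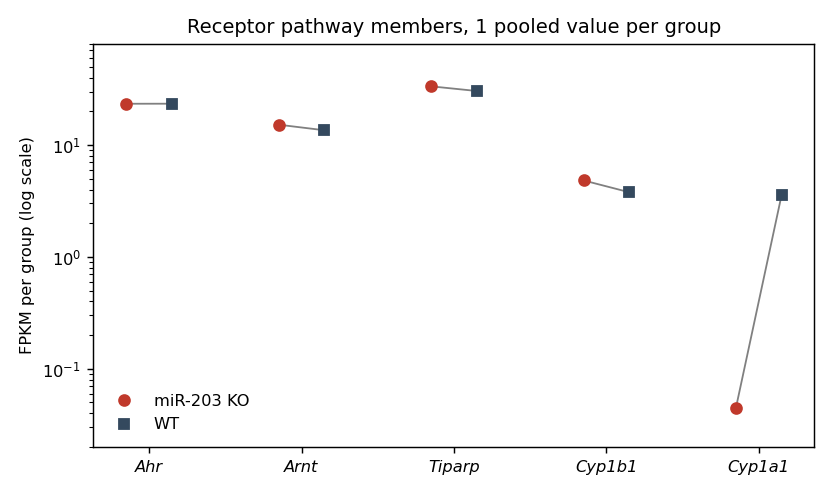
FPKM of the 5 members with a tested row (log scale), with miR-203 KO as circles on the left and WT as squares on the right of each pair, 1 pooled value per group and no error bar. Cyp1a1 is at 0.0447 FPKM in KO and 3.60 FPKM in WT cells, while the lines of the other genes are nearly level.

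The order of levels was Tiparp, Ahr, Arnt, Cyp1b1 and Cyp1a1 from high to low in both groups. No spread between samples is given, so whether neighbours in that order differ beyond it cannot be said. The distance between the last pair differed most. In WT cells the CYP1 genes Cyp1a1 and Cyp1b1 were close, whereas in KO cells Cyp1b1 exceeded Cyp1a1 108-fold (Cyp1a1 over Cyp1b1 was 0.00928 in KO and 0.951 in WT cells). Cyp1a2, the liver-type neighbour of Cyp1a1 with a similar substrate range, was at 0.745 FPKM in KO cells and 0.457 FPKM in WT cells and was not called (q = 0.997). Its row spans no more than 62451077 to 62451753 on chromosome 8, and since Cyp1a1 and Cyp1a2 are close paralogues, reads could be split between them. Summed over Cyp1a1, Cyp1b1 and Cyp1a2, the CYP1 level was 5.61 FPKM in KO cells and 7.84 FPKM in WT cells. Cyp1a1 made up 0.797% of that sum in KO cells and 45.9% in WT cells.

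Among tested rows, a KO value this low was rare. The 272 rows with too few reads were not tested, so a row near 0 in KO cells could enter mainly through its WT value. Cyp1a1 was also picked with this value known, so nothing is read from that rarity. KO values under 0.05 FPKM were found in 31 of the 26459 tested rows (0.117%), and 20 of those 31 were listed at 0. Among the 3085 rows whose WT value lay within 1.5 times that of Cyp1a1 (2.40 to 5.40 FPKM), the median KO value was 3.65 FPKM, and 46 rows were under 1 FPKM in KO cells. Cyp1a1 was one of 3 rows in that window with a KO value of 0.0447 FPKM or less. Of the 135 rows called lower with a KO value above 0, Cyp1a1 had the lowest deposited log2 fold change and ranked 3 from the bottom with the pseudocount. A further 12 rows called lower were listed at 0 in KO cells and are not part of this ranking. If the group value is a plain mean of the samples, no single KO line can lie above 0.134 FPKM, whereas the WT value could come from 1 batch of up to 10.8 FPKM. Which WT batches carry Cyp1a1 was not tested.

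**Figure D2:**
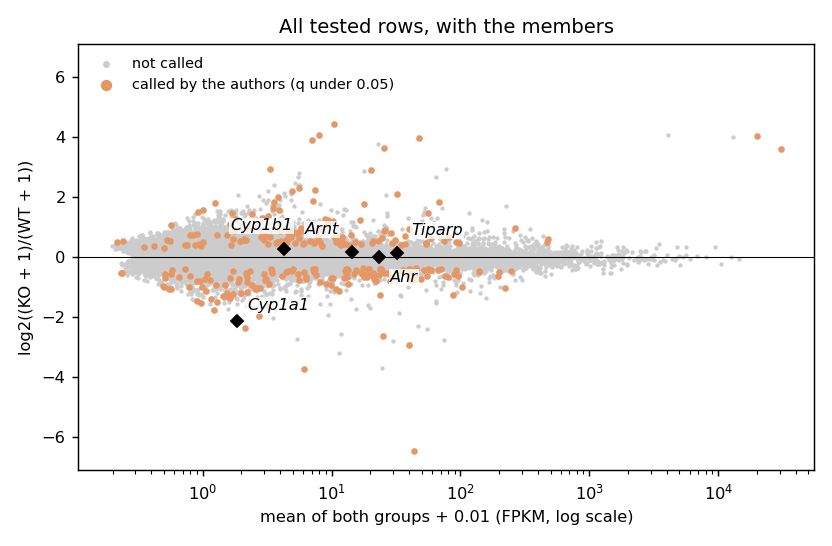
Each point is a tested row: mean FPKM of both groups plus 0.01 (log scale) against log2((KO + 1)/(WT + 1)), with rows called by the authors at q under 0.05 in orange and the 5 members as black diamonds. Cyp1a1 lies at -2.14, while Ahr, Arnt, Tiparp and Cyp1b1 lie between -0.0011 and 0.28, inside the dense band.

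Rows with a pair of values most like those of Cyp1a1 were sought by Euclidean distance in log2(FPKM + 1), over the 2 group values. The nearest 5 with a symbol were Rpgrip1, Dgkz, Plcd3, Pear1 and Sorcs2, at distances of 0.43 to 0.52. Rpgrip1 was listed at 0 in KO cells and at 2.43 FPKM in WT cells, and was called (q = 0.00756). Dgkz was also listed at 0 in KO cells, against 2.40 FPKM in WT cells, but was not called (q = 0.997). Plcd3 (0.345 FPKM in KO and 2.82 in WT cells), Pear1 (0.436 and 3.26 in the same order) and Sorcs2 (0.346 and 2.55) did not pass either. With 1 value per group, a likeness of this kind means that the 2 numbers are close and no more.

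The rows around Cyp1a1 on chromosome 8 did not share its low KO value. Csk, a kinase that restrains Src, stood at 33.3 FPKM in KO and 32.3 FPKM in WT cells. On the other side lay Edc3, an mRNA-decapping factor, with 8.98 FPKM in KO and 8.37 FPKM in WT cells, and Clk3, a splicing kinase, with 26.4 FPKM in KO and 27.1 FPKM in WT cells. Within 500 kb on either side lay 28 tested rows besides Cyp1a1. Those with a mean under 1 FPKM, Cyp1a2 among them, were at 0.480 to 0.780 FPKM in KO cells and 0.457 to 0.886 FPKM in WT cells. The other 22 had a mean of at least 1 FPKM, those of Csk, Edc3 and Clk3 among them. Several of these rows share a locus, so they stand for fewer separate genes. Their log2((KO + 1)/(WT + 1)) had a median of -0.03 and ran from -0.63 to 0.86. The lowest of these values belongs to Cyp11a1, whose deposited fold points the other way; without it the range started at -0.59. Of the 22, 1 was called, a row of Sema7a, a semaphorin, at 2.71 FPKM in KO and 4.18 FPKM in WT cells (q = 0.0395); this window was set after the values were seen. Taking the 2 named rows on each side of the 5 members with a row, none of the 20 neighbours was called at q under 0.05; with 1.05% of all tested rows called, this count says little.

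**Figure D3:**
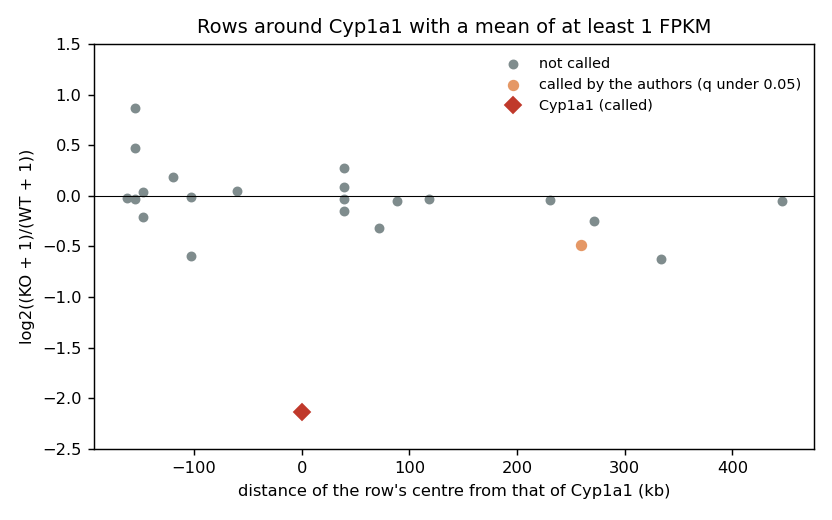
Rows averaging at least 1 FPKM over both groups within 500 kb of Cyp1a1, by the distance of their centres from that of Cyp1a1 (kb), against log2((KO + 1)/(WT + 1)). Cyp1a1 (diamond) lies at -2.14 and the 22 other rows between -0.63 (Cyp11a1, of unclear direction) and 0.86.

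The cytochrome P450 genes were also read out as a family, a group chosen after the values were seen. A symbol counted where it read Cyp, number, letters, number, so P450 genes named in another way are not included. A tested row was found for 19 P450 symbols, and besides Cyp1a1 none of the other 18 was called, which is read against the 1.05% called over all tested rows and says nothing particular about the family. The direction of Cyp11a1, the enzyme that cleaves the cholesterol side chain, is unclear: it was listed at 2.53 FPKM in KO and 4.46 FPKM in WT cells, a log2 ratio of -0.82, but the authors' deposited log2 fold change was 0.28 (q = 0.997). Without it, the 13 others with a mean of at least 1 FPKM had log2((KO + 1)/(WT + 1)) between -0.34 and 0.52 with a median of -0.01, and 6 stood higher and 7 lower in KO cells. Cyp2s1, an extrahepatic P450 that the receptor induces in human cells, was at 19.8 FPKM in KO and 22.2 FPKM in WT cells (q = 0.997).

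**Figure D4:**
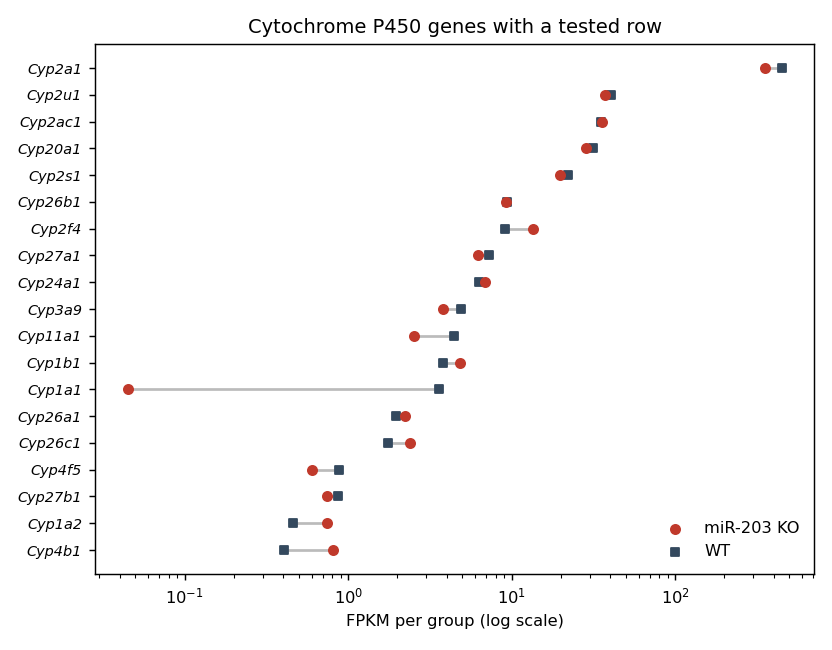
FPKM (log scale) of 19 cytochrome P450 genes in miR-203 KO (circles) and WT cells (squares), 1 pooled value per group, ordered by the WT value. The line of Cyp1a1, from 0.0447 FPKM in KO to 3.60 FPKM in WT cells, is far longer than the rest.

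Further genes of the pathway came from 8 lists of 98 genes in all, which were also drawn up with earlier results known. Of these, 70 had a tested row, and 3 were called higher and 2 lower in KO cells (7.14% called, against 1.05% of all tested rows). Several called members were already known as changed when the lists were written, so that share supports nothing. The counts of single lists below are also set against 1.05%. At that share most lists of this size would hold no called gene, so a list without a call says little. The median log2((KO + 1)/(WT + 1)) over the 70 was 0.04, against 0.02 over all tested rows.

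Among the chaperones and kinase that hold the receptor in the cytosol, none of 3 measured genes was called, against 1.05% of all tested rows. Hsp90ab1, a subunit of the HSP90 chaperone, stood at 359.6 FPKM in KO and 363.7 FPKM in WT cells. Ptges3, the co-chaperone p23, stood at 97.3 FPKM in KO and 104.1 FPKM in WT cells. Src, a kinase reported in the receptor complex, had 81.1 FPKM in KO and 64.4 FPKM in WT cells without passing (q = 0.161). The median log2 ratio of this list, with the pseudocount, was -0.02.

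Other bHLH-PAS factors and the receptor's coregulators were not called either, which at a share of 1.05% over all tested rows says little. Of 13 bHLH-PAS factors, 5 were measured, with Hif1a, the hypoxia factor that shares Arnt, at 88.2 FPKM in KO and 90.98 FPKM in WT cells and Clock, a circadian factor, at 34.5 FPKM in KO and 33.4 FPKM in WT cells. Arnt2, the paralogue of Arnt, had no tested row under its symbol. All 11 coregulators were measured and none passed, with a median log2 ratio of 0.0022. Smarca4, a chromatin-remodelling ATPase, stood at 51.98 FPKM in KO and 52.4 FPKM in WT cells. Med1, a Mediator subunit, stood at 33.7 FPKM in KO and 35.3 FPKM in WT cells.

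Drug-metabolising enzymes and transporters reported as receptor targets moved the other way from Cyp1a1 where they were called. Of 12 listed, 7 were measured, Nfe2l2 for a transcription factor among them, of which 2 were called higher and 0 lower. The median log2 ratio of 0.26 is the value of Cyp1a2, at 0.745 FPKM in KO and 0.457 FPKM in WT cells. No general rise of the list is read from it. Aldh3a1, an aldehyde dehydrogenase, rose to 11.8 FPKM in KO cells, against 2.49 FPKM in WT cells (q = 0.00756 by Cuffdiff). Nqo1, a quinone reductase, rose to 578 FPKM in KO cells, against 380 FPKM in WT cells (q = 0.00756). Both are also targets of NRF2, the oxidant-response factor encoded by Nfe2l2. The Nfe2l2 transcript stood at 138 FPKM in KO and 124 FPKM in WT cells (q = 0.997). Hmox1, another reported NRF2 target, was called lower, at 44.2 FPKM in KO and 59.3 FPKM in WT cells (q = 0.031). The activity of NRF2 was not tested. Gsta3, a glutathione transferase of a family of near-identical copies and therefore uncertain, had 19.2 FPKM in KO and 5.63 FPKM in WT cells but was not called (q = 0.838). The listed Ugt1a genes, Gsta1 and Gsta2 had no tested row under their symbols.

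Signalling genes reported to respond to the receptor were called in both directions, 1 higher and 1 lower among 6 measured of 9 listed. Epgn, the EGF receptor ligand epigen, rose to 15.1 FPKM in KO cells, against 9.10 FPKM in WT cells (q = 0.00756). Vegfa, an angiogenic growth factor, fell to 20.5 FPKM in KO cells, against 27.6 FPKM in WT cells (q = 0.0187). The median log2 ratio of the list was 0.18.

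CYP1 enzymes need electrons and haem. All 17 genes listed for their supply were measured, of which 0 were called higher and 1 lower, with a median log2 ratio of 0.04. Por, the reductase that feeds electrons to microsomal P450s, stood at 32.6 FPKM in KO and 35.2 FPKM in WT cells (q = 0.997). Alas1, the first enzyme of haem synthesis, stood at 24.4 FPKM in KO and 23.8 FPKM in WT cells (q = 0.997). Hmox1, which breaks haem down, fell to 44.2 FPKM in KO cells, against 59.3 FPKM in WT cells (q = 0.031).

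Genes that make or import tryptophan-derived ligands were measured in 6 of 15 cases, with a median log2 ratio of -0.0086. None was called, against 1.05% of all tested rows. Slc7a5, a transporter of large neutral amino acids, had 71.3 FPKM in KO and 92.3 FPKM in WT cells without passing (q = 0.0617). Afmid, which acts after the first step of tryptophan breakdown, had 8.50 FPKM in KO and 8.04 FPKM in WT cells. Of the genes for that first step, Ido2 had 3.46 FPKM in KO and 6.27 FPKM in WT cells without passing (q = 0.997). It had 4 tested rows, and the size of its difference depends on the row. With the pseudocount its log2 ratio was -0.70 for this row, -0.25 for the first-listed row and -0.54 for the rows summed. Ido1 and Tdo2 had no tested row under their symbols. Among ADP-ribosylation enzymes and readers related to Tiparp, 15 of 17 were measured, with a median log2 ratio of 0.04. Again none was called, against 1.05% of all tested rows. Parp1, the main DNA-damage sensor of the family, stood at 81.4 FPKM in KO and 85.3 FPKM in WT cells, and Zc3hav1, an antiviral zinc-finger protein, at 75.8 FPKM in KO and 73.9 FPKM in WT cells.

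**Figure D5:**
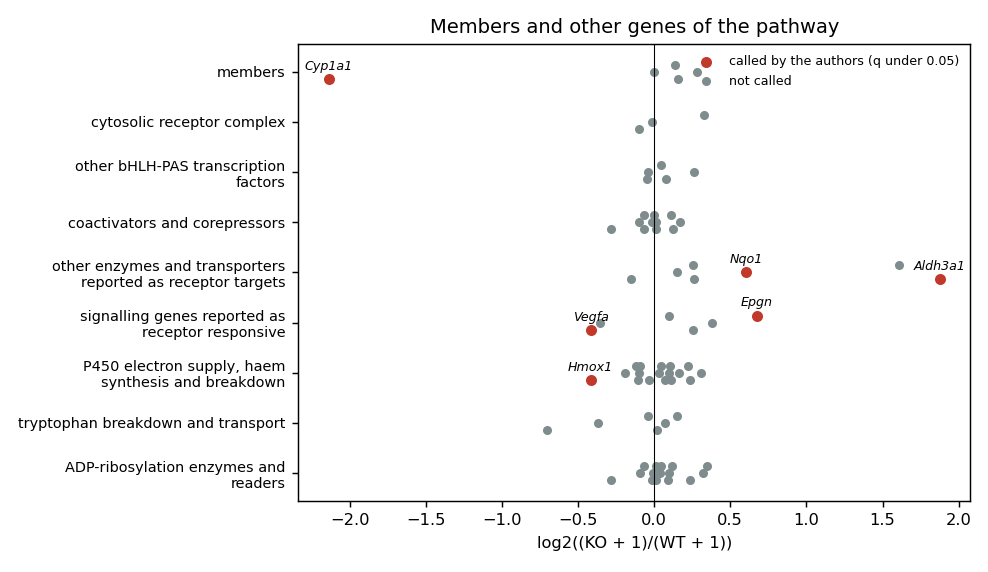
Each point is a gene, placed by log2((KO + 1)/(WT + 1)) within the members and the 8 lists, with genes called by the authors at q under 0.05 in red and named. Cyp1a1 lies at -2.14, Aldh3a1 at 1.88 and Nqo1 at 0.60, and the medians of the 8 lists run from -0.02 to 0.26.

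As to the cells, 7 of 8 epithelial markers were measured and none was called. They summed to 1397 FPKM in KO and 1399 FPKM in WT cells, with 5 higher and 2 lower in KO cells. Epcam was at 419 FPKM in KO and 501 FPKM in WT cells, and Krt8 at 241 and 204 FPKM. The near-equal sums therefore hold differences in opposite directions. Markers of fibroblasts (1 of 8 measured, 1.17 FPKM in KO and 1.43 FPKM in WT cells) and endothelium (1 of 6, 25.0 FPKM in KO and 31.1 FPKM in WT cells) were not called. Of 8 leukocyte markers 2 were measured, summing to 24.1 FPKM in KO and 32.5 FPKM in WT cells, nearly all of it Cd79a, a B-cell receptor component, at 23.9 FPKM in KO and 31.7 FPKM in WT cells (q = 0.346, not called). Ptprc and Pecam1, which define leukocytes and endothelium, had no tested row, and Csf1r was called lower, at 0.2004 FPKM in KO and 0.791 FPKM in WT cells (q = 0.0187). The 4 measured markers of these other cell types had lower values in KO cells, as Cyp1a1 did, and their part in its value was not tested. In bulk RNA, fewer cells with a transcript and less of it per cell cannot be told apart.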

How the data were processed

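Per the labels, total RNA was made into stranded (dUTP) libraries. Per the submitters' processing notes, TopHat (listed as 0.9), Cufflinks 2.2.1, Cuffdiff 2.2.1.3 and the build rn6 were used; the annotation and options were not given in the sources used here. For each row and group the authors deposited 1 FPKM value, and with it, per the file headers, a log2 fold change of KO over WT, a test statistic (a score, not used), a p-value and a q-value. Cuffdiff shares reads between similar transcripts, and FPKM keeps no depth.

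Decimal commas were replaced and rows with status OK kept. A symbol was matched after splitting the gene column at commas; the longest locus was its main row, and among equal loci the row with the higher mean. Without values per sample, no test of the groups was run, and a row counts as called where the authors' q was under 0.05; q equalled recomputed Benjamini-Hochberg values to within 5.12e-07. The members, lists and naming rules were chosen with earlier results of these data known. Named from the lists were up to 4 called genes, otherwise the 2 with the highest mean; Src, Cyp2s1, Nfe2l2, Gsta3, Por, Alas1, Ido2, Sema7a, Cyp11a1, the markers and genes without a row were added after their values were seen. Some genes that the lists first held are not reported here. Counting and adjustment were tested on simulated data. Python 3.11.15, pandas 2.3.3 and NumPy 2.4.6 were used.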

Additional observations from a re-analysis of the deposited data

How the results depend on the processing

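The 277 calls over all tested rows became 175 at q under 0.01, 113 at q under 0.05 with a 2-fold difference, and 173 when only rows averaging 5 FPKM or more entered the adjustment. The single member called, Cyp1a1, was lost (0 members called) at q under 0.01 and with the minimum mean of 5 FPKM, which removes its row, and was called with a minimum mean of 1 FPKM (q = 0.0212). The 5 calls in the pathway lists became 3 at q under 0.01 and 1 under the added demand of a 2-fold difference. They became 6 when only rows averaging at least 1 FPKM, or at least 5 FPKM, entered the adjustment. At least 1 listed gene given above as not called therefore passes in those settings. The log2 fold of Cyp1a1 was -2.14 with a pseudocount of 1, -4.68 with 0.1 and -6.33 with none, which is also the authors' deposited value. Of 40 member values under 8 alternatives, the other 37 stayed within 1.5 times of those reported. Many of them could not differ, since Ahr, Arnt, Cyp1a1 and Cyp1b1 have 1 tested row each and the choice of row changes nothing. For Tiparp the main row is also the first-listed row and the highest, and its rows summed gave 0.15. In the lists, where many genes also have 1 row, 559 of 560 values stayed within 1.5 times. The exception was Parp10 with the first-listed row (0.73). Scaling both groups to the same total would lower every KO value by 0.16 on the log2 scale, against 0.02 for the same median. Under the same total the log2 fold was 0.0016 for Arnt and -0.02 for Tiparp, so the small differences of both depend on that scaling. The first-listed row, the authors' fold column and leaving out Cyp11a1 were chosen after seeing the data. No paired analysis was possible because samples are pooled within each group. Leaving out replicates could not be done either, and the spread within groups is unknown.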
